A study of Mus musculus with 21 samples.

Results

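Toll-like receptors are membrane proteins that recognise conserved microbial molecules, and macrophages are among the cells best known for using them. Tlr4 senses lipopolysaccharide together with its binding partner Ly96 (MD-2) and the co-receptor Cd14, while Tlr2 pairs with Tlr1 or Tlr6 to sense bacterial lipopeptides. Tlr7 and Tlr9 sit in endosomes and sense single-stranded RNA and unmethylated DNA. Myd88 is the adaptor that most of these receptors bind, and Irak1 is a kinase that Myd88 recruits on the way to NF-kB activation. These 10 genes, 6 receptors, 2 receptor partners, an adaptor and a kinase, were followed across the 7 groups of a microarray study in which 12393 genes were measured. Each gene was taken from the probe sets that the platform annotation assigns to a single symbol, and of several such probe sets the one with the highest mean over all 21 arrays was used.

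The cells were RAW 264.7, a macrophage-like line from a mouse tumour induced by a leukaemia virus, so the groups are cultures of a transformed line and not of primary macrophages. Cells received amorphous silica of 10 nm at 5, 20 or 50 µg/ml, or of 500 nm at 250, 500 or 1000 µg/ml, for 2 h in medium without serum, and untreated cells were the control. The doses are called low, mid and high within each size. Nominal surface area, dose over diameter for spheres of equal density, stood at 1, 4 and 10 for 10 nm and at 1, 2 and 4 for 500 nm silica, relative to the low dose. Each group had 3 arrays. Nothing in the labels tells whether the arrays of a group came from separate cultures, and the spread behind every p-value is that among arrays, possibly technical. They also do not say whether untreated cells were moved to medium without serum. The array signal depends on both the cells present and the RNA in each, and fewer cells of a kind cannot be told apart from less RNA per cell.

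Signals are on a log2 scale and differences are log2 differences, with treated minus untreated throughout unless stated; levels of different genes are not compared, because probe sets differ in brightness. A gene was called when its adjusted p from limma, corrected over all 12393 genes of the comparison, was under 0.05. Markers were read against the median of all genes as a rough guide to identity. Of 10 macrophage markers, which include Cd14, 8 lay above the median of all genes, with Csf1r at 13.30 and Adgre1 at 9.10 but Mrc1 at 3.73, and the mean of the 10 ran from 10.18 to 10.29 over the 7 groups. None of the 10 was called at either high dose, where 20.2% (10 nm) and 15.3% (500 nm) of all genes were called. Neutrophil, T cell, B cell, fibroblast and epithelial marker lists had 0 genes above that median, and the dendritic cell and osteoclast lists 1 each. Of the 5 osteoclast genes, 2 were called at each high dose, both of them higher. They were Acp5 (tartrate-resistant acid phosphatase, 0.44 and 0.93) and the dim Ocstamp (mean 4.54, 0.94 and 0.72). In these 7 lists, of 4 to 6 measured genes each, 3 genes were called at the 10 nm high dose and 4 at the 500 nm high dose. The shares of all genes called there were the same 20.2% and 15.3%, and the part of these marker genes in the results was not tested.

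The replicate 3 arrays stood apart. Their values had the narrowest spread of the 3 arrays in 7 of 7 groups. The 3′ minus 5′ signal of the control transcripts, an index of RNA degradation or labelling, was highest in replicate 3 in 5 of 7 groups, reaching 0.95 in the 10 nm high group, 0.53 in the 500 nm high group and 1.15 in untreated cells. Group means of the index were 0.49 ± 0.40 at 10 nm high, 0.31 ± 0.20 at 500 nm high and 0.49 ± 0.57 in untreated cells (SD, n = 3 each). Among the 10 genes, Irak1 was highest in replicate 3 in 7 of 7 groups and Cd14 was lowest there in 7 of 7. For the 10 genes, calls against untreated cells are therefore also given from a fit without the replicate 3 arrays, and for the other genes named below the calls lost in that fit are stated, and the part of these arrays in the other differences was not tested.

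**Figure D1:**
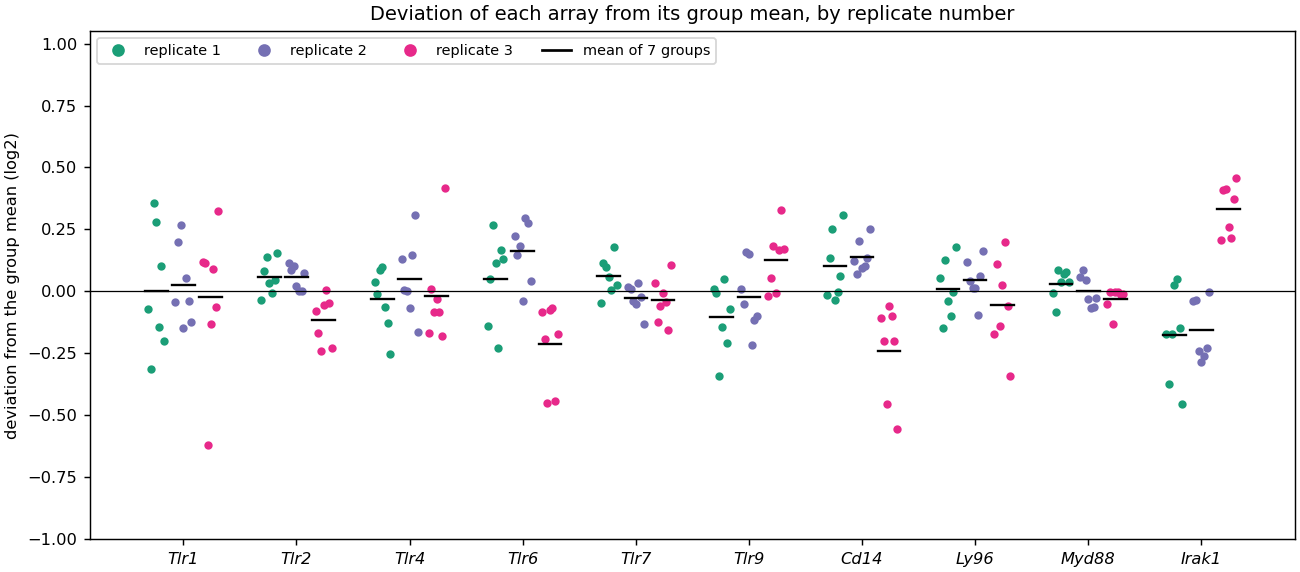
Deviation of each array from the mean of its group (log2, vertical axis) for the 10 genes, coloured by replicate number, with 7 points per replicate and black bars for their mean. The replicate 3 points of Irak1 all lie above 0 (mean 0.33) and those of Cd14 and Tlr6 all below it (means -0.24 and -0.21).

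Promoter sequence from RefSeq (build GRCm38.p6) was at hand for 6 of the 10 genes, in 9 windows from 250 bases before to 50 bases after a transcription start. Those of Tlr2 and Tlr1 are shown, as the 250 bases before the start, because both genes fell with silica. Capitals mark matches, on either strand, to the letters GAGGAA (the core bound by the macrophage factor PU.1), GGGNNTTCC (NF-kB), TGANTCA (AP-1) or GAAANNGAA (interferon regulatory factors).
Tlr2, chr3:83841609-83841858, minus strand: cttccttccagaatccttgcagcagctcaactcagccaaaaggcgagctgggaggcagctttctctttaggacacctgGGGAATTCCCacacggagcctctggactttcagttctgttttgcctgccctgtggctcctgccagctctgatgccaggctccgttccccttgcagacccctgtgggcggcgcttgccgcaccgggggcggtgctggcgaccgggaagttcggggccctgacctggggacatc
Tlr1, chr5:64933559-64933808, minus strand: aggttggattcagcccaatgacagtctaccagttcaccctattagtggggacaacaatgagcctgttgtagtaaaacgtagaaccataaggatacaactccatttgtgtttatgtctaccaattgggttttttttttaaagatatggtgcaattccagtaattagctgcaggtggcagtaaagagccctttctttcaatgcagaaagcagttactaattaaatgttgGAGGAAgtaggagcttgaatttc
Tlr1, chr5:64932700-64932949, minus strand: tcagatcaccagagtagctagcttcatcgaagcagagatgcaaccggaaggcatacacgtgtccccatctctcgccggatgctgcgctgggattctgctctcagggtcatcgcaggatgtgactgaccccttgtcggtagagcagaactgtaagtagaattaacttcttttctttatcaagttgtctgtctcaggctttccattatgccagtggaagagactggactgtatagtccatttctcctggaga

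The Tlr2 window held 2 overlapping matches to the NF-kB letters, 1 on each strand, the first 172 bases before the start. The Tlr1 window with the higher coordinates held 1 match to the PU.1 letters, 23 bases before the start, and the other Tlr1 window held none of the 4 motifs. Of the genes not called in any comparison, Tlr9 had 2 PU.1 matches and 1 AP-1 match, Myd88 had 1 match to the interferon regulatory factor letters and 1 of the 2 Tlr6 windows had 2 such overlapping matches. The 2 Irak1 windows, which overlap, had none. Among all 32817 promoter windows of 300 bases, 28.3% held the PU.1 letters, 5.82% the NF-kB letters, 7.81% the AP-1 letters and 8.55% the interferon regulatory factor letters. These are matches of letters and not known binding sites. Tlr1 and Tlr6 are neighbours on chromosome 5, as are Tlr7 and Tlr8 on the X chromosome.

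The signal of 4 of the 10 genes fell with silica, all of them receptors, and none of the 10 was called higher on the values as deposited. At the 10 nm high dose Tlr4, Tlr1, Tlr2 and Tlr7 were called lower. With 500 nm silica at the high dose Tlr4, Tlr1 and Tlr7 were called lower, and Tlr2 was not. Of all genes, 20.2% were called in either direction at the 10 nm high dose, 12.6% lower and 7.58% higher, and 15.3% at the 500 nm high dose, 10.0% lower and 5.31% higher. The median difference of the 10 genes was -0.26 at the 10 nm high dose, against 0.04 over all genes, and -0.27 at the 500 nm high dose, against 0.07. All 3 treated arrays lay below all 3 untreated arrays for 5 of the 10 genes at the 10 nm high dose (the 4 called genes and Myd88), where 16.4% of all genes did so. At the 500 nm high dose that held for 4 of the 10 (the 3 called genes and Tlr2), where 15.9% of all genes did so. No gene of the 10 had all its treated arrays above the untreated ones at either dose. With the replicate 3 arrays left out, the calls at the 10 nm high dose were Tlr4 and Tlr2 alone, and those at the 500 nm high dose were Tlr4, Tlr7, Tlr2 and Irak1. Of all 12393 genes, that fit called 2241 at the 10 nm high dose and 1650 at the 500 nm high dose. With all arrays the numbers were 2506 and 1898.

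**Figure D2:**
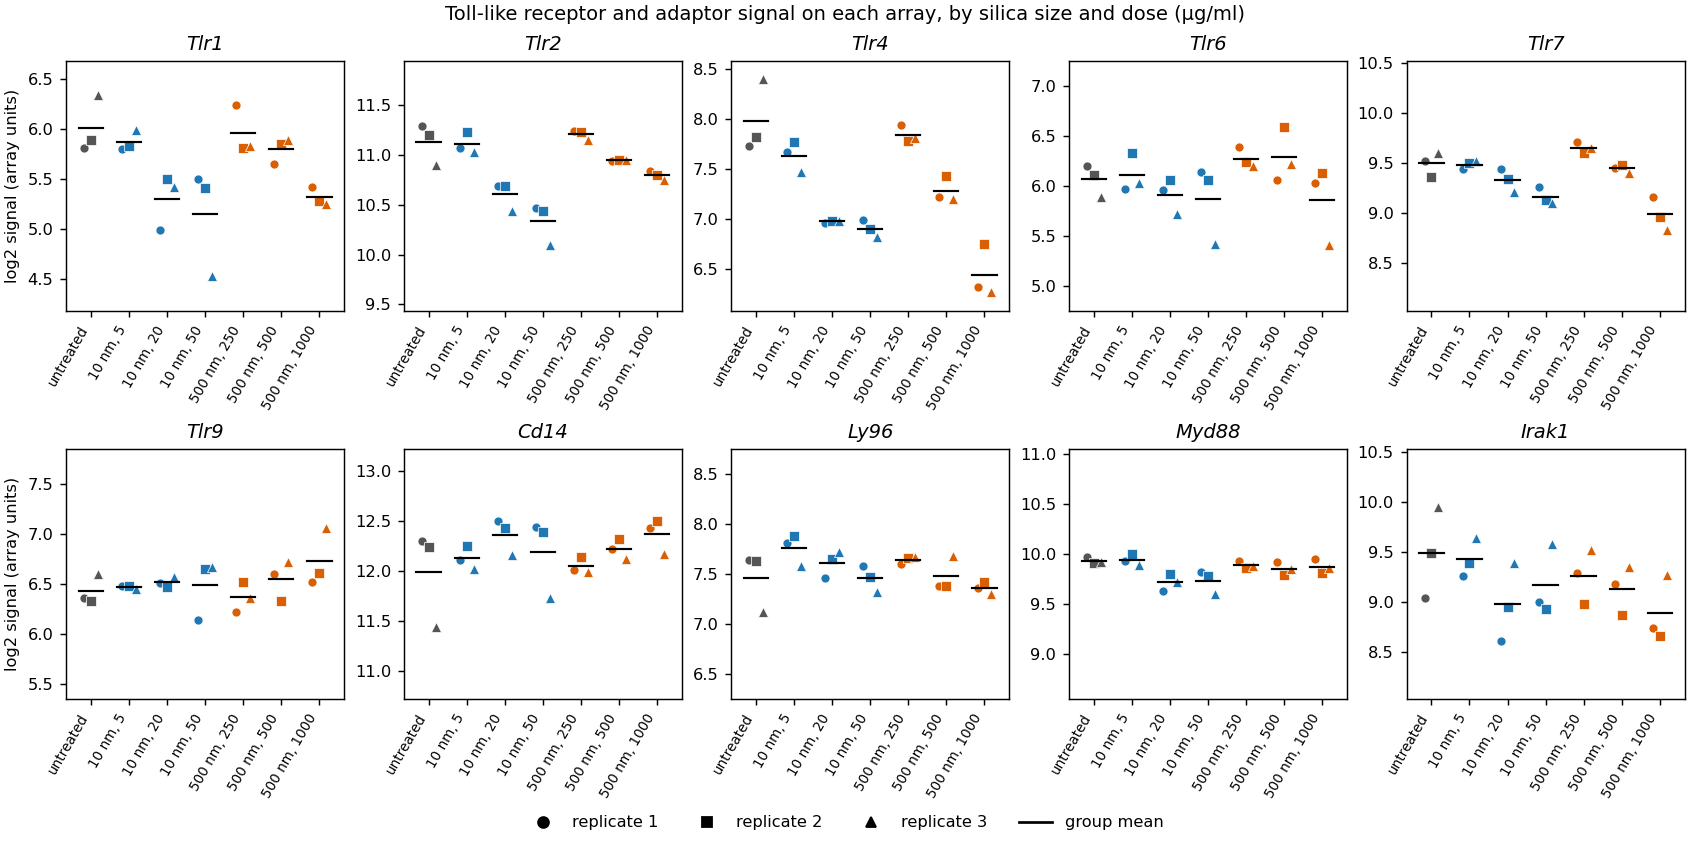
Signal of each of the 10 genes on every array (log2, vertical axis; every panel spans the same range), by group along the horizontal axis with doses in µg/ml. Marker shape gives the replicate number and the black bar the mean of the 3 arrays. Tlr4 steps down with dose of both sizes, and the 3 arrays at 500 nm, 1000 µg/ml lie between 6.26 and 6.75.

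The split between genes called higher and lower depended on the scaling of the arrays. With each array centred on its median, 49.7% of the calls at the 10 nm high dose and 55.4% at the 500 nm high dose were higher, against 37.5% and 34.7% on the values as deposited. Rescaling to a common spread as well gave 56.5% and 66.1%. The falls of Tlr4, Tlr2 and Tlr1 at the 10 nm high dose, and of Tlr4 and Tlr7 at the 500 nm high dose, were called under each of the 3 scalings tried. Those of Tlr7 at the 10 nm high dose and of Tlr1 at the 500 nm high dose were not, as given for each gene.

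The lower doses showed fewer differences. At the low doses 0 of the 10 genes were called with either size, where limma called 0.767% of all genes at 10 nm and 0.428% at 500 nm. At an unadjusted limma p under 0.05 the numbers were 2 of 10 and 0 of 10. The share of all genes at that unadjusted threshold was not counted. At the 10 nm mid dose 3 of the 10 were called, Tlr4, Tlr1 and Tlr2, all lower, against 10.6% of all genes. At the 500 nm mid dose Tlr4 alone was called, lower, against 2.77% of all genes. A single test of any difference among the 7 groups called the same 4 receptors, against 16.2% of all genes, and Tlr4 ranked 165 of 12393 by that statistic.

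**Figure D3:**
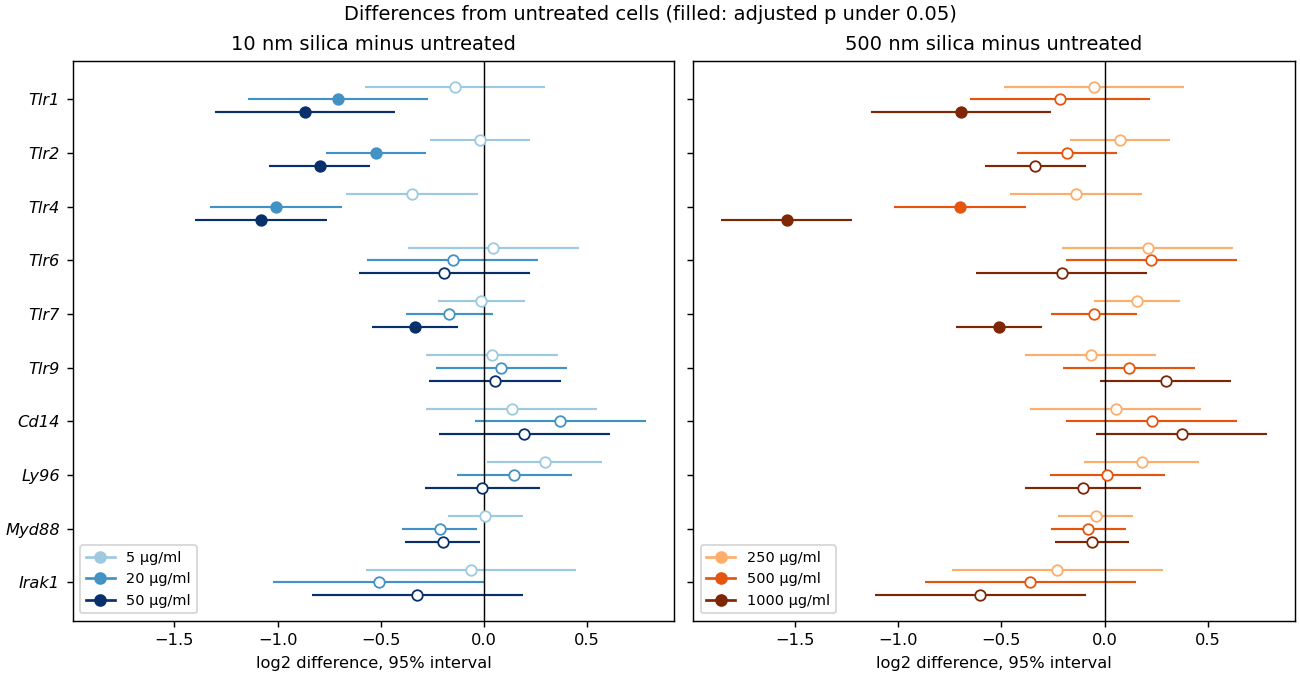
Log2 difference from untreated cells (horizontal axis) with 95% intervals for the 10 genes, at the 3 doses of 10 nm silica (left) and of 500 nm silica (right). Filled points passed an adjusted p of 0.05. Every filled point lies below 0, and the lowest is Tlr4 at 1000 µg/ml of 500 nm silica, at -1.54.

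Tlr4, the lipopolysaccharide receptor (probe set 1418162_at, gene on chromosome 4), gave the largest differences of the 10 at the mid and high doses. Its signal was 6.99, 6.90 and 6.82 at the 10 nm high dose and 6.31, 6.75 and 6.26 at the 500 nm high dose, against 7.73, 7.82 and 8.40 in untreated cells. Neither treated group overlapped the untreated arrays. The difference was -1.08 ± 0.15 (SE), a signal 2.11-fold lower, at the 10 nm high dose (adjusted p = 4.5e-05, limma). For 500 nm high it was -1.54 ± 0.15, or 2.91-fold lower (adjusted p = 6.5e-07, limma). The highest untreated array is replicate 3, and without the replicate 3 arrays the differences were -0.83 (adjusted p = 0.00105) and -1.24 (adjusted p = 4.3e-05) by limma.

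With 10 nm silica Tlr4 measured 7.67, 7.76 and 7.47 at the low dose and 6.96, 6.98 and 6.98 at the mid dose. With 500 nm silica it measured 7.94, 7.78 and 7.81 at the low dose and 7.22, 7.43 and 7.20 at the mid dose. Both mid dose groups lay below every untreated array. The 10 nm mid difference was -1.01 (adjusted p = 1.3e-04, limma) and -0.80 without the replicate 3 arrays (adjusted p = 0.00178). The 500 nm mid difference was -0.70 (adjusted p = 0.0124), and -0.45 without the replicate 3 arrays, where it was not called (adjusted p = 0.136, limma). That call was also lost when any 1 of untreated replicate 3, 500 nm mid replicate 1 or 500 nm mid replicate 3 was left out (adjusted p 0.0634 to 0.0723). At the low doses the differences were -0.35 for 10 nm and -0.14 for 500 nm silica, and neither was called.

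The group means of Tlr4, lowest first, were 6.44 at 500 nm high, 6.90 at 10 nm high, 6.97 at 10 nm mid, 7.28 at 500 nm mid, 7.63 at 10 nm low, 7.84 at 500 nm low and 7.98 in untreated cells. The 10 nm high and 10 nm mid arrays overlapped, and so did the 500 nm low and untreated arrays, while the other neighbours in this order did not overlap. The second Tlr4 probe set, 1418163_at, which is dimmer (mean 6.85 against 7.29), was also called lower at the high doses, with smaller differences of -0.56 at 10 nm (adjusted p = 0.0393, limma) and -0.67 at 500 nm (adjusted p = 0.0163). It was not called at 10 nm mid (-0.40, adjusted p = 0.201) or 500 nm mid (-0.33, adjusted p = 0.541), and measured 0.08 at 500 nm low. Its 10 nm slope of -0.05 was not called (adjusted p = 0.625), its 500 nm slope of -0.37 was (adjusted p = 0.0124), and the 10 nm minus 500 nm difference at the high doses was 0.11 (adjusted p = 0.811).

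Tlr2, which heads the lipopeptide-sensing pairs (probe set 1419132_at, chromosome 3), fell with 10 nm silica. Its signal was 10.47, 10.43 and 10.09 at the 10 nm high dose and 10.84, 10.80 and 10.74 at the 500 nm high dose, against 11.28, 11.20 and 10.90 in untreated cells. Both treated groups lay below all untreated arrays, the 10 nm group by the wider margin. The 10 nm high difference was -0.80 ± 0.12 (SE), or 1.74-fold lower (adjusted p = 6.5e-05, limma), and -0.79 without the replicate 3 arrays (adjusted p = 9.3e-05). At the 500 nm high dose it was -0.34 ± 0.12, just outside the threshold (adjusted p = 0.0579, limma). It was called without the replicate 3 arrays, at -0.43 (adjusted p = 0.00965), and after quantile normalisation (-0.35, adjusted p = 0.0148), but not on median-centred values (-0.25, adjusted p = 0.119) or after rescaling the arrays to a common spread (-0.14, adjusted p = 0.297).

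At the 10 nm low and mid doses Tlr2 measured 11.07, 11.22 and 11.03, then 10.69, 10.69 and 10.43. At the 500 nm low and mid doses it measured 11.24, 11.22 and 11.15, then 10.94, 10.95 and 10.95. The 10 nm mid arrays lay below every untreated array, while the 500 nm mid arrays fell within the untreated range. The 10 nm mid difference was -0.52 (adjusted p = 0.00467, limma), or -0.55 without the replicate 3 arrays (adjusted p = 0.00206), and the 500 nm mid difference of -0.18 was not called. The group means, lowest first, were 10.33 at 10 nm high, 10.60 at 10 nm mid, 10.79 at 500 nm high, 10.95 at 500 nm mid, 11.11 at 10 nm low, 11.13 in untreated cells and 11.20 at 500 nm low, where the first 2 of this order overlapped, as did the last 3.

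Tlr1, a partner of Tlr2 (probe set 1449049_at, chromosome 5), was dim, with a mean of 5.63. Its signal was 5.50, 5.41 and 4.53 at the 10 nm high dose and 5.42, 5.28 and 5.25 at the 500 nm high dose, against 5.81, 5.89 and 6.34 in untreated cells. The treated groups did not overlap the untreated one, but replicate 3 was the lowest array of the 10 nm group and the highest of the untreated group. The differences were -0.87 ± 0.21 (SE), or 1.82-fold lower, at the 10 nm high dose (adjusted p = 0.00609, limma) and -0.70 ± 0.21 at the 500 nm high dose (adjusted p = 0.0284). Without the replicate 3 arrays they were -0.39 (adjusted p = 0.118) and -0.50 (adjusted p = 0.0643), and neither was called by limma. The 500 nm call was also lost on quantile-normalised (adjusted p = 0.0532) and median-centred values (adjusted p = 0.0503), and when untreated replicate 3 or 500 nm high replicate 2 or 3 was left out (adjusted p 0.0672 to 0.128).

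At the 10 nm mid dose Tlr1 measured 4.99, 5.51 and 5.42, all below the untreated arrays, a difference of -0.71 (adjusted p = 0.0331, limma). In the fit without replicate 3 it was -0.60 (adjusted p = 0.0365). It was not called after quantile normalisation (adjusted p = 0.0665) or after rescaling to a common spread (adjusted p = 0.0582), nor without untreated replicate 3, 10 nm mid replicate 1 or 10 nm mid replicate 3 (adjusted p 0.0521 to 0.189). The remaining groups overlapped the untreated arrays, with 5.80, 5.83 and 5.99 at 10 nm low, 6.24, 5.81 and 5.83 at 500 nm low and 5.66, 5.85 and 5.89 at 500 nm mid. Its arrays thus formed a lower set, with the 10 nm mid, 10 nm high and 500 nm high groups at 5.51 or below, and a higher set of the other 4 groups at 5.66 or above.

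Tlr7, the endosomal receptor for single-stranded RNA (probe set 1422010_at, chromosome X), showed smaller falls, which were seen at the high doses. Its signal was 9.26, 9.13 and 9.10 at the 10 nm high dose and 9.16, 8.96 and 8.83 at the 500 nm high dose, against 9.52, 9.37 and 9.60 in untreated cells. All 6 treated arrays were below the lowest untreated array. The difference was -0.33 ± 0.10 (SE), or 1.26-fold lower, at the 10 nm high dose (adjusted p = 0.0240, limma) and -0.51 ± 0.10, or 1.43-fold lower, at the 500 nm high dose (adjusted p = 0.00123). Without the replicate 3 arrays the 500 nm call stood at -0.38 (adjusted p = 0.0364, limma) and the 10 nm call was lost at -0.25 (adjusted p = 0.131). The 10 nm call was also lost under each of the 3 other scalings (-0.17 to -0.27) and when untreated replicate 1 or 3 or 10 nm high replicate 2 or 3 was left out (adjusted p 0.0686 to 0.0792).

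At the other doses Tlr7 measured 9.44, 9.50 and 9.52 (10 nm low), 9.45, 9.34 and 9.21 (10 nm mid), 9.71, 9.60 and 9.65 (500 nm low) and 9.45, 9.48 and 9.40 (500 nm mid). None of these 4 groups was called against untreated cells. By its means, neighbouring groups of Tlr7 overlapped throughout, except that the 500 nm low arrays, the highest, all lay above the untreated ones. The 2 other Tlr7 probe sets are much dimmer (means 6.68 and 6.79, against 9.37) and did not show the 500 nm fall, with uncalled differences of 0.02 and 0.10 at that dose. Their slopes over the 10 nm doses, -0.27 (adjusted p = 0.0254) and -0.29 (adjusted p = 0.0157), were called by limma. Against untreated cells these 2 measured 0.64 and 0.63 at 10 nm low and -0.18 and -0.29 at 10 nm high, none called. With the mean of the 3 probe sets in place of the brightest, Tlr7 was called at neither high dose (adjusted p = 0.250 for 10 nm and 0.626 for 500 nm).

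On the values as deposited, the receptor partners and the signalling proteins were not called against untreated cells at any dose. Cd14 (probe set 1417268_at) measured 12.45, 12.39 and 11.74 at the 10 nm high dose and 12.43, 12.51 and 12.17 at the 500 nm high dose, against 12.30, 12.25 and 11.44 in untreated cells. In all 3 groups replicate 3 was the lowest array, and the groups overlapped. The differences were 0.20 (95% interval -0.22 to 0.61) and 0.37 (-0.04 to 0.79) and neither was called (adjusted p = 0.491 and 0.222, limma). After rescaling the arrays to a common spread Cd14 was called higher at both high doses, by 0.46 (adjusted p = 0.0297) and 0.60 (adjusted p = 0.00631), and at 10 nm mid by 0.51 (adjusted p = 0.0239), and without the replicate 3 arrays it was called at neither high dose (0.14 and 0.19).

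Ly96 (probe set 1449874_at) measured 7.59, 7.47 and 7.32 at the 10 nm high dose and 7.36, 7.43 and 7.31 at the 500 nm high dose, against 7.65, 7.63 and 7.12 in untreated cells. The untreated arrays spanned both treated groups, and the differences of -0.01 and -0.10 were not called. Their 95% intervals with all arrays, -0.29 to 0.27 and -0.38 to 0.18, exclude falls of the size seen for its partner Tlr4. The lowest untreated array is replicate 3. Without the replicate 3 arrays the differences were -0.11 (adjusted p = 0.461, limma) and -0.25 (adjusted p = 0.132), neither called.

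Myd88 (probe set 1419272_at) measured 9.81, 9.78 and 9.60 at the 10 nm high dose and 9.95, 9.81 and 9.85 at the 500 nm high dose, against 9.97, 9.90 and 9.92 in untreated cells. The 10 nm arrays were all below the untreated arrays, the 500 nm arrays overlapped them, and the differences of -0.20 (adjusted p = 0.107, limma) and -0.06 (adjusted p = 0.666) were not called. Irak1 (probe set 1448668_a_at) measured 8.995, 8.93 and 9.58 at the 10 nm high dose and 8.74, 8.66 and 9.26 at the 500 nm high dose, against 9.03, 9.49 and 9.95 in untreated cells. Each group of Irak1 arrays was wide and overlapped the others. Its difference at the 500 nm high dose was -0.60 (95% interval -1.11 to -0.09), not called with all arrays (adjusted p = 0.107, limma) and called without the replicate 3 arrays (-0.56, adjusted p = 0.0433) or without untreated replicate 1 (-0.83, adjusted p = 0.0354). Irak1 had 3 further probe sets, whose differences at that dose were -0.31 to -0.47, none called.

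Tlr6, the other partner of Tlr2 (probe set 1421352_at), measured 6.14, 6.06 and 5.42 at the 10 nm high dose and 6.03, 6.13 and 5.41 at the 500 nm high dose, against 6.20, 6.11 and 5.89 in untreated cells. Outside replicate 3 the arrays of the 3 groups spanned 6.03 to 6.20, and the differences of -0.19 and -0.21 were not called. Tlr9, the endosomal DNA receptor (probe set 1422083_at), measured 6.14, 6.65 and 6.67 at the 10 nm high dose and 6.52, 6.61 and 7.06 at the 500 nm high dose, against 6.36, 6.33 and 6.60 in untreated cells. Its groups overlapped, and the differences of 0.05 and 0.30 were not called. At the low and mid doses of both sizes the arrays lay between 5.72 and 6.59 for Tlr6 and between 6.22 and 6.72 for Tlr9. The other 4 uncalled genes ranged there from 11.99 to 12.50 (Cd14), 7.38 to 7.88 (Ly96), 9.63 to 9.99 (Myd88) and 8.61 to 9.64 (Irak1), and none of these 6 genes was called at those doses on the values as deposited.

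Dose was tested within each particle size as a slope, the change in log2 signal per doubling of dose, from which untreated cells are absent. Over 5 to 50 µg/ml of 10 nm silica 4 of the 10 genes were called, against 12.2% of all genes, and all sloped down. The slopes were -0.24 for Tlr2 (adjusted p = 1.5e-04), -0.23 for Tlr4 (adjusted p = 0.00215), -0.22 for Tlr1 (adjusted p = 0.0228) and -0.10 for Tlr7 (adjusted p = 0.0424), by limma. Over 250 to 1000 µg/ml of 500 nm silica 3 of the 10 were called, against 8.20% of all genes, at -0.70 for Tlr4 (adjusted p = 4.6e-06), -0.33 for Tlr7 (adjusted p = 1.7e-04) and -0.21 for Tlr2 (adjusted p = 0.0329). Tlr1 sloped at -0.32 there without being called (adjusted p = 0.0648, limma). The dose ranges of the sizes differ, so their slopes were not compared.

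Without the replicate 3 arrays the 10 nm slopes of Tlr2 (-0.21) and Tlr4 (-0.24) kept their calls, those of Tlr1 (-0.12, adjusted p = 0.127) and Tlr7 (-0.08, adjusted p = 0.132) did not, and Ly96 was called at -0.10 (adjusted p = 0.0429, limma). In the same fit the 500 nm slopes called were those of Tlr4 (-0.66), Tlr7 (-0.30), Tlr2 (-0.21), Tlr1 (-0.34) and, upward, Cd14 (0.20, adjusted p = 0.0272). Over all genes that fit called 480 upward and 1286 downward slopes with 10 nm silica, and 448 and 733 with 500 nm silica. The Tlr2 slope with 500 nm silica also lost its call when any 1 of the 6 low or high dose arrays of that size was left out (adjusted p 0.0652 to 0.113). The Tlr7 slope with 10 nm silica lost it in 13 of 21 fits that left out 1 array (adjusted p 0.0508 to 0.130), and the Tlr1 slope with 10 nm silica without any 10 nm low array or without 10 nm high replicate 3 (adjusted p 0.0521 to 0.102).

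**Figure D4:**
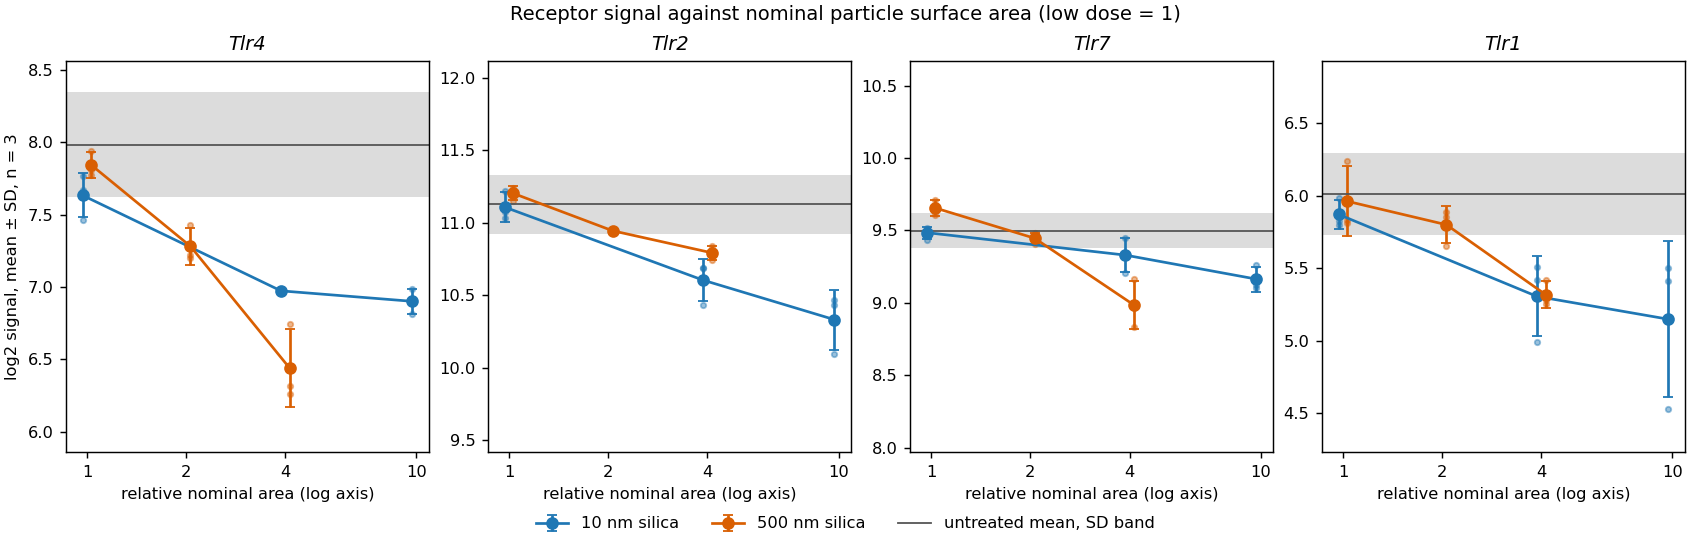
Signal of the 4 called receptors (log2, mean ± SD of 3 arrays, small points for single arrays) against nominal surface area relative to the low dose (log axis), for 10 nm and 500 nm silica, with the untreated mean and SD as a grey band. At a relative area of 4, Tlr4 averaged 6.97 with 10 nm and 6.44 with 500 nm silica.

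The particle sizes were set against each other directly in 3 pairs. At the high doses, which differ in nominal area, 1 of the 10 genes was called, against 7.52% of all genes. Tlr2 was lower with 10 nm than with 500 nm silica by 0.46 on the log2 scale, a difference of -0.46 ± 0.12 (SE) or 1.38-fold (adjusted p = 0.0178, limma). All 3 of its 10 nm arrays, between 10.09 and 10.47, lay below the 500 nm arrays, between 10.74 and 10.84. It was -0.37 without the replicate 3 arrays (adjusted p = 0.0327), and the call was lost without 10 nm high replicate 3, 500 nm high replicate 1 or 500 nm high replicate 2 (adjusted p 0.0592 to 0.103). Tlr4 pointed the other way, at 0.46 (95% interval 0.14 to 0.78), and was not called (adjusted p = 0.0766, limma). It was called when 500 nm high replicate 2 or untreated replicate 3 was left out (adjusted p 0.0185 to 0.0265).

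At equal nominal area, the 10 nm mid dose against the 500 nm high dose, 0 of the 10 genes were called by limma, where 2.85% of all genes were called. An unadjusted p under 0.05 was found for 2 of the 10, and the share of all genes at that threshold was not counted. Tlr4 was higher with 10 nm silica by 0.53 (95% interval 0.21 to 0.85, adjusted p = 0.0698) and Tlr7 by 0.34 (0.14 to 0.55, adjusted p = 0.0755), neither of them called. Tlr4 was called there when 500 nm high replicate 2 or untreated replicate 3 was left out (adjusted p 0.0142 to 0.0243), and Tlr7 without 500 nm high replicate 1 (adjusted p = 0.0428). For Tlr1 the difference was -0.01 (-0.45 to 0.42) and for Tlr2 -0.19 (-0.43 to 0.05). At the low doses, also of equal nominal area, 0 of the 10 were called by limma, against 0.0888% of all genes, and 0 of the 10 had an unadjusted p under 0.05. The Tlr4 interval there was -0.53 to 0.11 and the Tlr2 interval -0.34 to 0.15.

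Tlr4 and Tlr2 were also set against each other within each array, as the log2 signal of Tlr4 minus that of Tlr2 from the probe sets used. This contrast was not among the planned comparisons. Its differences between groups restate the separate size differences of Tlr4 and Tlr2 given above and are no further support for them. The Tlr4 minus Tlr2 signal was -3.43 ± 0.14 at the 10 nm high dose and -4.35 ± 0.26 at the 500 nm high dose (SD, n = 3 each), a difference of 0.92. The 10 nm arrays, from -3.53 to -3.28, did not overlap the 500 nm arrays, from -4.53 to -4.05. The exact two-sided permutation test gave p = 0.1, which is the smallest p that 3 arrays against 3 can give. At the doses of equal nominal area it was -3.63 ± 0.15 at 10 nm mid and -4.35 ± 0.26 at 500 nm high, a difference of 0.72 (exact permutation p = 0.1), and again the arrays did not overlap. At the low doses it was -3.48 ± 0.08 with 10 nm and -3.36 ± 0.08 with 500 nm silica, a difference of -0.12 with overlapping arrays (exact permutation p = 0.2). With the second Tlr4 probe set in place of the first, a choice made after seeing the data, the 3 differences were 0.57, 0.45 and -0.37. The arrays then overlapped in none of the 3 pairs. At the low doses the 10 nm arrays, from -4.80 to -4.07, lay below the 500 nm arrays, from -3.96 to -3.94.

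The genes whose pattern over the 6 exposures was most like that of Tlr4, by root mean square difference of the log2 differences from untreated, were Patz1 (0.11), Jade1 (0.12), Zbtb18 (0.14), Zbtb1 (0.15) and Ppargc1b (0.16). Patz1, Zbtb18 and Zbtb1 encode zinc finger proteins of the BTB family. Patz1, the nearest, measured -1.06 at the 10 nm high dose and -1.40 at the 500 nm high dose, beside -1.08 and -1.54 for Tlr4. All 6 differences share the untreated arrays.

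The rest of the Toll pathway was described by 5 further lists at the high doses, with 66 of 81 listed genes measured. Their counts stand beside the shares of all genes given above for these doses, 12.6% and 10.0% lower and 7.58% and 5.31% higher. Of the other Toll-like receptors, 3 of 6 were measured, and Tlr3, the endosomal receptor for double-stranded RNA, fell at both doses, by 0.36 at 10 nm high (adjusted p = 0.0149, limma) and by 0.61 at 500 nm high (adjusted p = 2.2e-04). Its arrays ran from 4.99 to 5.17 at 10 nm high and from 4.70 to 4.97 at 500 nm high, against 5.36 to 5.64 in untreated cells. This signal was dim, below the median of all genes (6.66). The 10 nm call was lost on median-centred values (adjusted p = 0.0511) and without the replicate 3 arrays (-0.30, adjusted p = 0.089). Tlr5, the flagellin receptor, measured 0.48 and 0.47 and Tlr8, the neighbour of Tlr7, 0.22 and 0.28, none of them called.

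Of 9 measured co-receptors, trafficking proteins and further adaptors, 3 were called lower at each high dose and 0 higher, with list medians of -0.10 at 10 nm and -0.27 at 500 nm. Tirap, the adaptor that brings Myd88 to Tlr2 and Tlr4, fell by 0.49 at the 10 nm high dose (adjusted p = 0.0312, limma) and by 0.92 at the 500 nm high dose (adjusted p = 3.2e-04). Its 500 nm high arrays ran from 7.37 to 7.58, against 8.23 to 8.76 in untreated cells. Cd36, a scavenger receptor that works with Tlr2, fell by 0.72 at the 10 nm high dose (adjusted p = 0.0119). Cd36 was dim too, from 4.30 to 5.01 at that dose against 5.21 to 5.78 in untreated cells. Ly86 (MD-1), the partner of the Tlr4 homologue Cd180, fell by 0.44 at both (adjusted p = 0.0342 and 0.0407), and Cd180 by 0.54 at the 500 nm high dose (adjusted p = 0.0243). The 10 nm call of Tirap was lost under all 3 other scalings (-0.35 to -0.43, adjusted p 0.0709 to 0.233) and kept without the replicate 3 arrays (-0.51, adjusted p = 0.00726). The Cd180 call and the Ly86 calls were lost under all 3 other scalings (adjusted p 0.0637 to 0.577), and without the replicate 3 arrays 1 gene of the list was called at the 500 nm high dose, with Cd180 at -0.38 and Ly86 at -0.31.

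Of 22 measured kinases, ligases and transcription factors downstream of the receptors, 2 were called higher and 3 lower at the 10 nm high dose, and 3 higher and 4 lower at the 500 nm high dose, with list medians of -0.11 and -0.01. Rel, an NF-kB subunit, rose by 0.52 at the 10 nm high dose and by 1.98, or 3.94-fold, at the 500 nm high dose (adjusted p = 0.0203 and 1.9e-08, limma). Mapk14, the p38 kinase, fell by 0.50 and 0.93 (adjusted p = 0.0015 and 1.9e-06), and Ikbke by 0.55 and 0.62 (adjusted p = 0.0111 and 0.00558). Ikbkg, the scaffold of the IkB kinase, fell by 0.69 at the 10 nm high dose (adjusted p = 8.1e-04) and measured -0.01 at the 500 nm high dose. Map3k8, a kinase upstream of the ERK pathway, fell by 0.51 at the 500 nm high dose (adjusted p = 0.0198), a call lost after quantile normalisation (-0.44, adjusted p = 0.0519) and without the replicate 3 arrays (-0.28, adjusted p = 0.191). Without those arrays Mapk14 measured -0.34 at the 10 nm high dose (adjusted p = 0.0407).

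Of 12 measured brakes on Toll signalling, 3 were called higher and 1 lower at the 10 nm high dose, and 5 higher and 0 lower at the 500 nm high dose, with list medians of 0.06 and 0.46. Dusp1, which dephosphorylates p38 and JNK, rose 19.7-fold and 21.6-fold. The repressor Atf3 rose 11.6-fold and 12.0-fold and Zfp36, which speeds the decay of cytokine messages, 4.34-fold and 4.28-fold, and the ribonuclease gene Zc3h12a rose 2.11-fold at the 500 nm high dose, each with an adjusted p of 1.5e-06 or lower by limma. Tnip1, a partner of the A20 deubiquitinase, fell by 0.56 at the 10 nm high dose (adjusted p = 1.2e-04, limma).

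Of 20 early target genes of Toll signalling, all measured, 8 were called higher and 1 lower at the 10 nm high dose, and 10 higher and 1 lower at the 500 nm high dose. The chemokine genes Cxcl2 and Ccl4 rose by 5.11 and 3.42 at the 10 nm high dose and by 5.99 and 3.22 at the 500 nm high dose. Ier3 rose by 2.77 and 2.44, Ptgs2 (cyclooxygenase-2) by 2.21 at the 10 nm high dose and Tnf by 2.61 at the 500 nm high dose, each with an adjusted p of 2.6e-09 or lower by limma. The list medians were 0.29 and 0.39, beside -0.26 and -0.27 for the 10 receptors, partners and adaptors. Without the replicate 3 arrays 7 and 9 targets were called higher, and the gene called lower at the 10 nm high dose was lost.

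**Figure D5:**
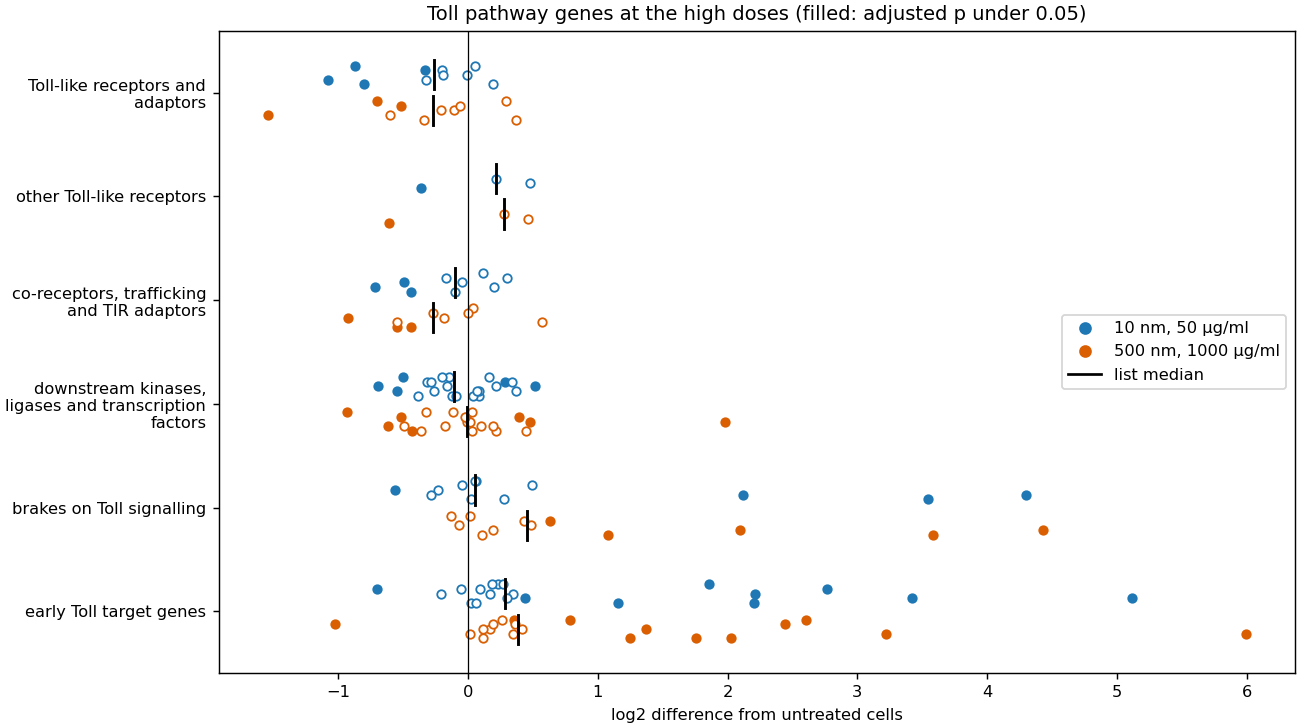
Log2 difference from untreated cells (horizontal axis) of every measured gene in the 6 Toll pathway lists, at the high dose of 10 nm (blue) and of 500 nm silica (orange). Filled points passed an adjusted p of 0.05 and black bars are list medians. The filled points of the receptors and adaptors lie between -1.54 and -0.33, and those of the early targets reach 5.99.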

How the data were processed

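Total RNA of 21 samples in 7 groups was labelled from an oligo-dT primer and hybridised to Affymetrix mouse arrays, per the labels' protocols. The authors deposited 1 log10 value per probe set and array, made with RMA, per the submitters' processing notes; no version or settings are known here. The method commonly evens out shifts that most genes share and understates differences of dim probe sets. The deposited arrays still differed, with medians from 6.16 to 6.29 and SDs from 2.46 to 2.67 on the log2 scale. The log base is unstated: values lay between 0.641 and 4.34, and only base 10 puts the brightest (22019) within a scanner's range. Values were multiplied by 3.32 to give log2. Of 22690 probe sets, 20393 had 1 gene symbol, 691 several and 1606 none; 20380 that are no controls gave 12393 genes.

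The comparisons used limma 3.58.1 under R 4.3.3 (group means over all 21 arrays, empirical Bayes variances, two-sided tests, 14 residual degrees of freedom) in 11 comparisons and a 7-group F test, adjusted by Benjamini-Hochberg over all genes. The fit was tested on simulated data. Arrays have no depth, and their number limits the precision. Figures used matplotlib 3.10.9 in Python 3.11.15.

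The 10 genes, the 5 further lists and the 8 marker lists were chosen with earlier results of these data known. From each list, up to 4 called genes per high dose whose treated arrays all lay beyond the untreated ones were named, and the 5 genes most like the member with the largest F. Tlr5, Tlr8, Tirap at 10 nm and the osteoclast genes Acp5 and Ocstamp were named after their values were seen. Alternatives were other scalings, array weights, an intensity trend, fits of only the compared arrays, a filter on dim genes, other probe set rules, a replicate block and left-out arrays; the lists without replicate 3 were added after seeing the data.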

Additional observations from a re-analysis of the deposited data

Results flagged for a closer look

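Tlr2 was called different between the particle sizes at the high doses. The difference, 10 nm minus 500 nm, was -0.46 on the log2 scale (adjusted p = 0.0178, limma), with 3 of 3 arrays of 10 nm silica below the 3 of 500 nm silica. The call was lost without 10 nm high replicate 3, 500 nm high replicate 1 or 500 nm high replicate 2 (adjusted p 0.0592 to 0.103, limma). The doses compared differ in mass and in nominal surface area, so size and dose cannot be told apart.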

How the results depend on the processing

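Of 3520 member values under other settings, 3395 kept their direction and side of the threshold, 69 lost a call, 56 gained 1 and 0 called values changed sign; 119 uncalled values did. The calls of Tlr4 at the 10 nm mid, 10 nm high and 500 nm high doses were kept in all of these settings, though its second probe set was not called at 10 nm mid. Array weights, which could not be fitted to full convergence, called 8 of the 10 genes for the 10 nm slope, 7 for the 500 nm slope, 5 at 10 nm mid, 2 at 500 nm mid, 6 at 500 nm high, 3 between the high doses, 3 at equal area and 8 in the F test. Over all 12393 genes array weights called 1552 higher and 2577 lower for the 10 nm slope, and 1709 and 1637 for the 500 nm slope. The numbers were 1353 and 1799 at 10 nm mid, 1322 and 995 at 500 nm mid, and 2652 and 2202 at 500 nm high. Between the high doses they were 2092 and 2674, and at equal area 959 and 1295. The share of all genes called by the F test under array weights was not counted. Fits of only the compared arrays, which have fewer residual degrees of freedom, called 2 for the 10 nm slope, 1 at 10 nm mid, 2 at 10 nm high, 0 at 500 nm mid and 0 between the high doses. Over all genes those fits called 245 higher and 681 lower for the 10 nm slope, 242 and 416 at 10 nm mid, and 82 and 42 at 500 nm mid. Quantile normalisation called 2 between the high doses and 1 at equal area, and leaving out the dimmest genes 1 at equal area. Over all genes tested these fits called 507 higher and 561 lower, 248 and 188, and 263 and 151. Without the replicate 3 arrays 2 were called at 10 nm high, 0 at 500 nm mid and 5 for the 500 nm slope; of the lists, 1 co-receptor was then called lower at 500 nm high, and 0 targets and 0 other receptors at 10 nm high. For co-receptors called lower, quantile normalisation gave 1 at 10 nm high, and median centring and rescaling gave 1 at each high dose; rescaling also gave 1 co-receptor higher at 10 nm high and 5 downstream genes higher at 500 nm high. Targets called lower at 10 nm high numbered 0 under each scaling, other receptors called lower there 0 under median centring, and downstream genes called lower at 500 nm high 2 under quantile normalisation. Leaving out 1 array at a time gave 2 to 4 calls for the 10 nm slope, 2 to 4 for the 500 nm slope, 2 to 3 at 10 nm mid, 3 to 4 at 10 nm high, 0 to 1 at 500 nm mid, 2 to 4 at 500 nm high, 0 to 2 between the high doses and 0 to 1 at equal area. Over all genes these fits called 1763 to 3034 at 10 nm high and 1381 to 2231 at 500 nm high. Between the high doses they called 543 to 1181. The 10 nm slope gave 237 to 515 genes called higher and 600 to 1342 lower. The 500 nm slope gave 210 to 424 and 400 to 851. At 10 nm mid they were 309 to 467 and 568 to 1037, and at 500 nm mid 111 to 187 and 97 to 240. At equal area they were 107 to 297 and 66 to 168. The cause of the changes between settings was not tested. No background or detection values were used here, so how far the dim signals of Tlr1, Tlr6 and Tlr9, and of Tlr3 and Cd36, lie above background was not assessed.

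The replicate numbers were not taken to pair the arrays. Deviations of same-numbered arrays correlated above 0.1 in 21 of 21 pairs for replicates 2 and 3 but in 9 of 21 for replicate 1 (lowest -0.24). A replicate block called 6 of the 10 genes at 500 nm high, 2 between the high doses and 2 at equal area; of the lists it called 5 downstream genes lower at 10 nm high and 1 other receptor higher at each high dose. Over all genes the block called 4544 at 10 nm high (2506 without it) and 3433 at 500 nm high (1898 without it). By direction these were 2153 higher and 2391 lower at 10 nm high, and 1562 and 1871 at 500 nm high. At equal area the block called 484 higher and 305 lower, against 224 and 129 without it. Array weights called 6254 and 4854, fits of only the compared arrays 692 and 761, and the test of every probe set 3983 and 3240. Between the high doses 932 genes were called, 2071 with the block, 4766 with weights, 163 with only the compared arrays, and 543 and 565 without 500 nm high replicate 1 and 2.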
